A study of Homo sapiens with 16 samples.

Results

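The 65 replication-dependent histone genes of the deposited read count tables were examined in U251 and U343 cells, which are human glioblastoma cell lines. They were chosen by name alone, as every row whose gene symbol begins with HIST1H, HIST2H, HIST3H or HIST4H, and they make up 65 of the 20314 genes in the U251 tables and 65 of the 20626 genes in the U343 tables. By the histone named in their symbol, 6 belong to H1, 15 to H2A, 19 to H2B, 12 to H3 and 13 to H4. Among the 19, HIST2H2BA is listed by RefSeq as a transcribed pseudogene and is counted as a member by its name only. By cluster, 55 are HIST1 genes on chromosome 6, 6 are HIST2 genes and 3 are HIST3 genes on chromosome 1, and 1 is HIST4H4 on chromosome 12. Cells of either line were transfected with a mimic of the microRNA miR-137 or with a control mimic, each at 25 nM, and were collected after 48 hours. RNASeq measured total RNA after depletion of ribosomal RNA, and RIPSeq measured the RNA that came down with antibodies to the poly(A) binding protein (PABP). Each of the 8 groups, defined by cell line, assay and transfection, had 2 libraries. The sources number the 2 libraries of a group but do not say that they came from separate cultures, so the p-values measure the spread between these libraries, which may be technical. The U251 libraries were made with random-hexamer priming and Nextera and the U343 libraries with TotalScript and Nextera, so that the cell line and the kit cannot be told apart.

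Replication-dependent histone genes supply the bulk of the nucleosomal and linker histones while DNA is copied. Their short, intronless transcripts end in a conserved stem-loop, bound by the stem-loop binding protein SLBP, in place of a poly(A) tail. Their transcription and the stability of their mRNAs are tied to S phase, and the mRNA is degraded when DNA synthesis stops. Genes that encode replacement histones, such as H2AFZ and H3F3B, are by contrast transcribed throughout the cell cycle into polyadenylated mRNA. A few replication-dependent genes are also known to make a longer, polyadenylated transcript, in particular in cells that have stopped dividing. H2A and H2B genes often lie head to head and share a promoter, in which an octamer bound by the factor OCT1 is a known element of H2B genes.

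The transfected agent mimics the mature microRNA below, which is shown because bases 2 to 8, in capitals, are the seed that pairs with target mRNAs. It is given as RefSeq has it, from chromosome 1, positions 98046091 to 98046113 on the minus strand of GRCh38.p14; the sequence and arm of the mimic used are not given in the sources used here.
hsa-miR-137-3p: uUAUUGCUuaagaauacgcguag

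A promoter window of RefSeq, from 250 bases before to 50 bases after the gene start in GRCh38.p14, was at hand for 54 of the 65 genes. In these windows the octamer ATTTGCAT was searched on both strands. It was found in 9 of 13 H2B windows and 11 of 14 H2A windows, in 1 of 10 H3 windows, and in none of the 6 H1 or 11 H4 windows, against 1.80% of all 27305 promoter windows. The CCAAT letters were in 46 of the 54 windows (85.2%, against 35.7% of all promoters), and in 3 of 11 H4 windows. The letters TATAAA were in 36 of the 54 windows (66.7%, against 11.95%). A match of letters is a description and says nothing of whether a factor bound there. In 5 cases the octamer was the same stretch of DNA for an H2A gene and an H2B gene on opposite strands. The only H3 window with an octamer, that of HIST1H3D, has it in the same stretch and on the same strand as the H2A gene HIST1H2AD. That octamer is thus counted under both types. The windows of 30 bases below, on the strand of each gene and with the octamer or its reverse complement in capitals, belong to genes whose response to miR-137 is described further on. HIST2H2BE and HIST2H2AC share their stretch (chr1:149886710-149886739), and so do HIST1H2BJ and HIST1H2AG (chr6:27132824-27132853).
HIST2H2BE: tcggagccctaATTTGCATaaggtggttat
HIST2H2AC: ataaccaccttATGCAAATtagggctccga
HIST1H2BK: ctcttcaccttATTTGCATgagaggtccta
HIST1H2AC: tgggcagagctATGCAAATgaggtatgaaa
HIST1H2BJ: ctcttcaccttATTTGCATaagcgattcta
HIST1H2AG: tagaatcgcttATGCAAATaaggtgaagag

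Depth was 10156675 to 18224061 counted reads per library in U251 RNASeq, 22359794 to 30731476 in U251 RIPSeq, 37952273 to 45134766 in U343 RNASeq and 37736206 to 45055184 in U343 RIPSeq. The unit CPM used below is the number of reads of a gene per 1000000 reads of a library, after scaling of the 8 libraries of a cell line with TMM factors. The levels of cell type markers that follow in this paragraph are CPM without that scaling. The glial and glioma genes VIM, CD44 and SOX2 were present throughout, from 60.6 CPM for SOX2 in U251 to 9505 CPM for VIM in U343. GFAP was at 3145 to 7370.3 CPM in U343 but at 3.64 to 29.5 CPM in U251. NES was at 103 CPM or more, and S100B at 0.195 to 1.60 CPM in U251 and 2.19 to 10.5 CPM in U343. Of the leukocyte markers, PTPRC and CD3E stayed under 1 CPM in all 16 libraries and CD14 reached 1.66 CPM in U251. Of the endothelial markers, PECAM1 stayed at or under 1.54 CPM, while in U343 CDH5 was at 7.58 to 30.9 CPM and VWF at 5.82 to 28.9 CPM, against 1.43 CPM at most in U251. Of the epithelial markers, EPCAM stayed under 1 CPM, while CDH1 was at 61.6 to 123 CPM in U343 and KRT18 at 77.7 to 203 CPM in U251. In 59 of the 65 histone genes at least 1 library held 10 reads or more. The other 6, HIST1H2AA, HIST1H2BA, HIST3H3, HIST1H4G, HIST1H4J and HIST1H4K, never passed 8 reads in a library, and HIST1H4K held 1 read in all 16 libraries together. HIST1H2AA, HIST1H2BA and HIST3H3 are known as testis-specific, as is HIST1H1T, which was measured. For scale, 3 reads came to 0.165 to 0.178 CPM of the unscaled total in the U251 control RNASeq libraries.

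Histone transcripts took up 0.969% to 1.41% of the counted reads in total RNA of control cells, and the linker gene HIST1H1E was first or second per kilobase in each line. Per kilobase of annotated span, the highest level in U251 control RNASeq was that of HIST1H1E (chr6:26264538-26265322 in hg18), with 3185 ± 10.0 CPM per kb (mean ± SD, n = 2 here and below). HIST1H1B followed with 2751 ± 1.05 and HIST1H3C with 2107 ± 5.96 CPM per kb, gaps larger than the spread of the libraries. HIST1H1E and HIST1H1B encode linker histones, which bind the DNA where it enters and leaves the nucleosome, and HIST1H3C encodes a core histone. The next 5 genes by the mean of the 4 RNASeq libraries were HIST1H2AG, HIST1H4D, HIST1H4E, HIST1H1C and HIST1H3F, from 1391 ± 78.3 for HIST1H2AG to 902 ± 53.8 for HIST1H3F. In U343 the order by the same mean was HIST2H2AC (2327 ± 571 CPM per kb), HIST1H1E (2219 ± 539.5), HIST1H1B (1521 ± 246), HIST2H3D (1428 ± 376), HIST1H1C, HIST1H3B, HIST1H2AG and HIST1H2AC. The values given are those of the control libraries, in which HIST1H2AD (441 ± 114) came before HIST1H2AC (415 ± 94.9) and the 2 were not separated beyond their spread. The U343 control libraries differed more from each other, and HIST2H2AC and HIST1H1E were not separated beyond their spread, nor were HIST1H1B and HIST2H3D. The span runs from gene start to gene end, while reads were counted on collapsed transcripts. For 6 members, HIST1H2BK (8547 bp) among them, the span is over 1000 bp and up to 29684 bp, against 354 to 790 bp for the others. Their levels per kb, and so their ranks, may be too low.

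Several members had very different levels in the 2 cell lines. Of the 54 genes with at least 20 reads in the control RNASeq libraries of each line, 28 had levels within 2-fold of each other, and across those 54 genes the log2 CPM values of the lines had a Pearson r of 0.41 and a Spearman rho of 0.46, given as a description since kit and line go together. Taking all 65 genes, 14 differed by more than 10-fold with at least 5 CPM in the higher line. The lines were not compared in this way over all genes, so whether such differences are particular to histone genes was not tested. Of the 14 genes, 8 were higher in U251 and 6 in U343. HIST2H3D had 45 and 37 reads in the U251 control libraries and 22894 and 27400 reads in the U343 control libraries. The H2A gene HIST1H2AJ had 4 and 1 reads in U251 and 3222 and 3515 reads in U343, and the H4 gene HIST1H4L had 0 and 1 reads against 2221 and 2493 reads. These genes were near the bottom of one line and well expressed in the other. HIST1H2AD, HIST1H2BM and HIST1H4F were the other 3 that were higher in U343. In the opposite direction, HIST1H4I had 1516 and 1437 reads in U251 and 6 and 3 reads in U343, and HIST1H3J had 3519 and 3201 reads against 94 and 78 reads. HIST1H2BB, HIST1H4A, HIST1H1D, HIST1H2BI, HIST1H3A and HIST1H2BL were also higher in U251, by 11.98-fold for HIST1H2BL to 193-fold for HIST1H2BB in mean CPM. HIST1H2AD overlaps HIST1H3D by 453 bases and HIST1H4I lies inside the span of HIST1H2BK, so the counts of these genes could have been split in more than one way. Genes of a histone type have nearly identical coding sequences, and how reads that map to several of them were counted is not given in the sources used here.

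**Figure D1:**
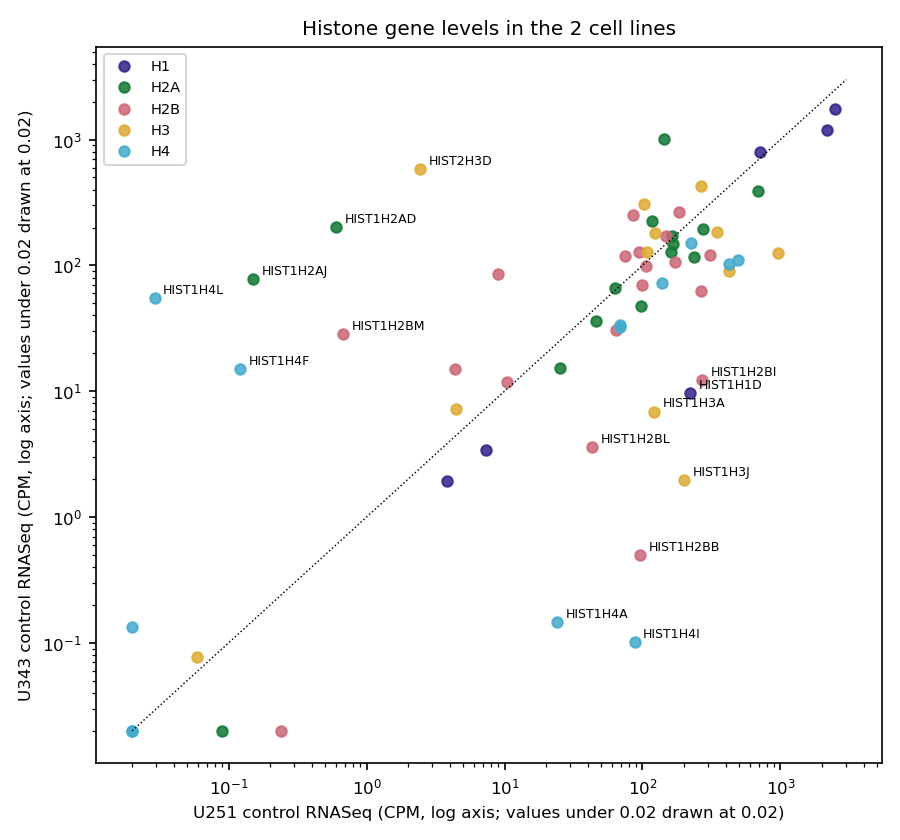
Level of each of the 65 histone genes in control RNASeq of U251 (x axis) and U343 (y axis), in CPM on log axes, as the mean of 2 libraries, coloured by the histone encoded, with a dotted line of equal levels. The 14 genes that differ by more than 10-fold with at least 5 CPM in the higher line are named, and the 2 leading H1 genes lie near the line of equal levels at the upper right.

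With miR-137 the share of histone reads in total RNA was lower in both lines. In U251 RNASeq the 65 genes together held 1.41% and 1.29% of the counted reads in the control libraries and 0.583% and 0.540% in the miR-137 libraries. The means were 1.35% ± 0.0834 and 0.561% ± 0.0302 (SD, n = 2), 2.40-fold lower with miR-137. In U343 RNASeq the shares were 0.969% and 1.29% in the controls and 0.527% and 0.370% with miR-137, 2.52-fold lower in the means. The groups did not overlap in either line. In RIPSeq all shares were far smaller, and the lines went in opposite directions. U251 RIPSeq held 0.0428% and 0.0284% in the controls and 0.0690% and 0.0522% with miR-137, whereas U343 RIPSeq held 0.0883% and 0.0923% in the controls and 0.0626% and 0.0730% with miR-137. With 2 libraries against 2, an exact permutation test of a single value cannot reach 0.05, so these sums are given without a test. In bulk RNA, fewer cells in S phase and less histone mRNA per cell cannot be told apart.

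**Figure D2:**
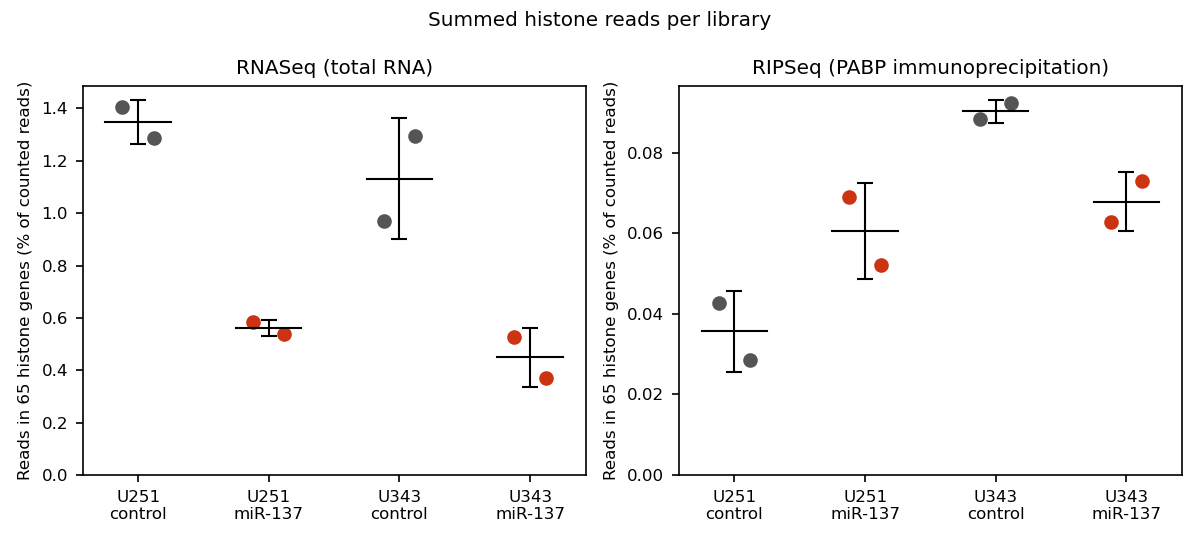
Reads in the 65 histone genes as percent of all counted reads (y axes, from 0, on different scales) in each of the 16 libraries, with control in grey and miR-137 in red, RNASeq on the left and RIPSeq on the right; bars show the mean and SD of 2 libraries. The red points lie below the grey ones in RNASeq of both lines and in U343 RIPSeq, and above them in U251 RIPSeq.

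In U251 RNASeq nearly every histone gene that could be tested fell with miR-137. Of 56 genes that passed the filter on low counts, 52 fell and 1 rose at an adjusted p under 0.05 (edgeR quasi-likelihood test, Benjamini-Hochberg adjustment over all 13052 genes tested), where 29.0% of all genes fell and 28.7% rose. The 56 genes had a median log2 fold change of -1.49, against 0.02 over all genes. The other 9 members had too few reads to be tested, 53 of the 56 had at least 10 reads in each of the 4 libraries, and 51 of these 53 fell. All 6 H1 genes, 11 of 13 H2A genes, 16 of 18 H2B genes, all 11 H3 genes and all 8 H4 genes tested fell. The medians ran from -1.32 for H2B to -2.13 for H1.

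The largest falls in U251 were among linker histone genes. HIST1H1T (chr6:26215619-26216343), a testis-specific H1, had 81 and 48 reads in the control libraries and 5 and 2 reads in the miR-137 libraries, a 12.6-fold decrease (log2 fold change -3.65, SE 0.49, adjusted p = 3.32e-05). It was a minor transcript, and every miR-137 value lay below every control value. HIST1H1A, also sparse, had 122 and 126 reads in the control libraries and 12 and 12 reads in the miR-137 libraries (log2 fold change -2.84, SE 0.27, adjusted p = 1.39e-06). HIST1H1B (chr6:27942549-27943338), the second most abundant histone transcript per kb, stood at 2173 and 2172 CPM in the control libraries and 406 and 380.4 CPM in the miR-137 libraries. Its fall of 5.59-fold (log2 fold change -2.48, SE 0.16, adjusted p = 3.43e-08) was larger than that of HIST1H1E, which stood at 2506 and 2495 CPM in the control libraries and 1176 and 1065 CPM in the miR-137 libraries (log2 fold change -1.18). Among core histones, the H4 gene HIST1H4D was at 482 and 507 CPM in the control libraries and 79.5 and 63.2 CPM in the miR-137 libraries (log2 fold change -2.81, SE 0.15, adjusted p = 7.95e-09). The H2B gene HIST1H2BI was at 281 and 262 CPM in the control libraries and 64.1 and 57.2 CPM in the miR-137 libraries (log2 fold change -2.18, SE 0.14, adjusted p = 3.20e-08). In each of these genes both control values lay more than 2-fold above both miR-137 values.

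A single gene went the other way in U251. HIST3H2A (chr1:226711688-226712183), an H2A gene outside the large cluster on chromosome 6, stood at 26.0 and 24.7 CPM in the control libraries and 45.4 and 41.9 CPM in the miR-137 libraries and rose 1.70-fold (log2 fold change 0.77, SE 0.14, adjusted p = 3.05e-04). Its neighbour HIST3H2BB was at 9.83 and 10.99 CPM in the control libraries and 12.3 and 12.7 CPM in the miR-137 libraries and did not pass the test (log2 fold change 0.25, adjusted p = 0.216). The other 2 genes not called were sparse in U251, HIST1H2AD with 15 and 5 reads in the control libraries and 8 and 10 reads in the miR-137 libraries and HIST1H2BM with 9 and 14 reads in the control libraries and 15 and 7 reads in the miR-137 libraries. HIST2H2BE had the smallest of the falls that were called (-0.33, SE 0.13 on the log2 scale).

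The abundant core histone genes of U251 fell as well. The H3 gene HIST1H3C, the most abundant core histone transcript per kb, was at 969 and 965 CPM in the control libraries and 513 and 479 CPM in the miR-137 libraries (log2 fold change -0.98, SE 0.14, adjusted p = 5.75e-05). The H2A gene HIST1H2AG was at 719 and 664 CPM in the control libraries and 211 and 201 CPM in the miR-137 libraries (log2 fold change -1.76, SE 0.14, adjusted p = 2.83e-07), and its head-to-head partner HIST1H2BJ was at 177 and 168 CPM in the control libraries and 111 and 96.9 CPM in the miR-137 libraries (log2 fold change -0.75, SE 0.13, adjusted p = 2.67e-04). Both partners of this pair thus fell, with groups that did not overlap. The H4 gene HIST1H4E was at 418 and 428 CPM in the control libraries and 127 and 109 CPM in the miR-137 libraries (log2 fold change -1.86, SE 0.14, adjusted p = 1.66e-07), and HIST1H3F at 438 and 403 CPM in the control libraries and 167 and 146 CPM in the miR-137 libraries (log2 fold change -1.44, SE 0.14, adjusted p = 1.55e-06). HIST1H1C, the linker gene of the polyadenylated group, was at 768 and 643 CPM in the control libraries and 243 and 216 CPM in the miR-137 libraries (log2 fold change -1.64, SE 0.15, adjusted p = 1.02e-06).

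Outside chromosome 6, all 6 HIST2 genes, the pseudogene HIST2H2BA among them, fell in U251 RNASeq (median -1.26 on the log2 scale). Neither of the 2 HIST3 genes tested fell, with a median of 0.51. Over all genes, 29.0% fell and 28.7% rose in U251 RNASeq. HIST4H4, the lone gene on chromosome 12, was at 79.9 and 58.5 CPM in the control libraries and 28.6 and 26.2 CPM in the miR-137 libraries (log2 fold change -1.36, SE 0.16, adjusted p = 1.08e-05). In U343 RNASeq all 6 HIST2 genes fell too (median -1.42), where 11.7% of all genes fell. In that line HIST4H4 was at 27.9 and 39.2 CPM in the control libraries and 17.6 and 10.5 CPM in the miR-137 libraries. It was not called (adjusted p = 0.064). The U343 level of HIST4H4 was lower in each miR-137 library than in each control library.

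In U343 RNASeq the estimates were of similar size but the libraries of a group differed more. All 57 genes tested had a lower estimate with miR-137, and 31 of them fell at an adjusted p under 0.05, where 11.7% of all genes fell and 8.31% rose. None rose, none had an unadjusted p under 0.05 for a rise, and DESeq2 also called no rise. It called 49 falls, where 15.5% of all genes fell and 13.0% rose by DESeq2. The median log2 fold change was -1.43, against 0.02 over all genes. By type, 5 of 6 H1 genes fell, 10 of 14 H2A genes, 9 of 18 H2B genes, 7 of 11 H3 genes and 0 of 8 H4 genes. The edgeR count of 0 for H4 stands beside 4 genes at an unadjusted p under 0.05 and 3 called by DESeq2. The H4 share of all reads was 0.0504% and 0.0696% in the controls, and 0.0407% and 0.0155% in the miR-137 libraries, which differed 2.62-fold from each other. For H1 the 2 miR-137 libraries differed 1.24-fold. Without either control library no gene at all was called, histone or other. Without miR-137 replicate 1 the count was 54, where 20.3% of all genes fell, and without replicate 2 it was 48, where 19.3% fell.

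HIST1H1T again showed the largest fall, with 100 and 70 reads in the control libraries and 12 and 4 reads in the miR-137 libraries in U343 RNASeq (log2 fold change -3.39, SE 0.48, adjusted p = 0.0174). The H3 gene HIST1H3J, which was sparse in U343, had 94 and 78 reads in the control libraries and 18 and 11 reads in the miR-137 libraries (log2 fold change -2.57, SE 0.31, adjusted p = 0.0129). Both were low in each miR-137 library and several times higher in each control. HIST2H2AB, an H2A gene on chromosome 1, was at 97.1 and 138 CPM in the control libraries and 28.6 and 22.0 CPM in the miR-137 libraries (log2 fold change -2.19, SE 0.24, adjusted p = 0.0108). The core histone genes HIST1H3A and HIST1H2AJ followed with -2.03 (SE 0.37) and -2.02 (SE 0.29) on the log2 scale (adjusted p = 0.0294 and 0.0174). HIST1H1B, high in both lines, was at 1065 and 1339 CPM in the control libraries and 331 and 264 CPM in the miR-137 libraries, a 3.99-fold decrease. HIST3H2A, the gene that rose in U251, was at 13.4 and 17.3 CPM in the control libraries and 12.5 and 13.9 CPM in the miR-137 libraries, so its groups overlapped and it was not called (log2 fold change -0.20).

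Of the 52 genes that fell in U251 RNASeq, 29 also fell in U343 RNASeq, which is 55.8% of the U251 calls and 93.5% of the 31 U343 calls. The 29 include 5 H1 genes, among them HIST1H1B, HIST1H1C and HIST1H1E. Over the 54 genes tested in both lines, the log2 fold changes had a Pearson r of 0.42 and a Spearman rho of 0.26, as a description across genes. The response itself was compared between the lines by an interaction term over the 8 RNASeq libraries, where 59 histone genes were tested. It differed in 4 of them, at an adjusted p under 0.05, where 12.7% of all genes had a lower and 12.5% a higher response in U343. On the log2 scale, the U343 response minus the U251 response was -0.98 (SE 0.21) for HIST3H2A, -1.42 (SE 0.33) for HIST3H2BB, -1.08 (SE 0.28) for HIST1H3J and 1.76 (SE 0.44) for HIST1H4I. HIST1H4I had 6 and 3 reads in the control libraries and 7 and 7 reads in the miR-137 libraries in U343, so its response there rested on a few reads. These counts depended on single libraries. Without U343 miR-137 replicate 1 they became 14 lower and 0 higher, where 16.4% of all genes were lower and 16.3% higher. Without U343 miR-137 replicate 2 they became 4 lower and 17 higher, where 20.1% of all genes were lower and 16.9% higher. Without U343 control replicate 2 both were 0, where 5.87% and 6.3% of all genes were called. Without U251 control replicate 2 or miR-137 replicate 1 there were 0 lower, and without U251 miR-137 replicate 2 there was 1 lower, each with 1 higher (5.76% to 6.64% of all genes lower and 6.64% to 9.57% higher).

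**Figure D3:**
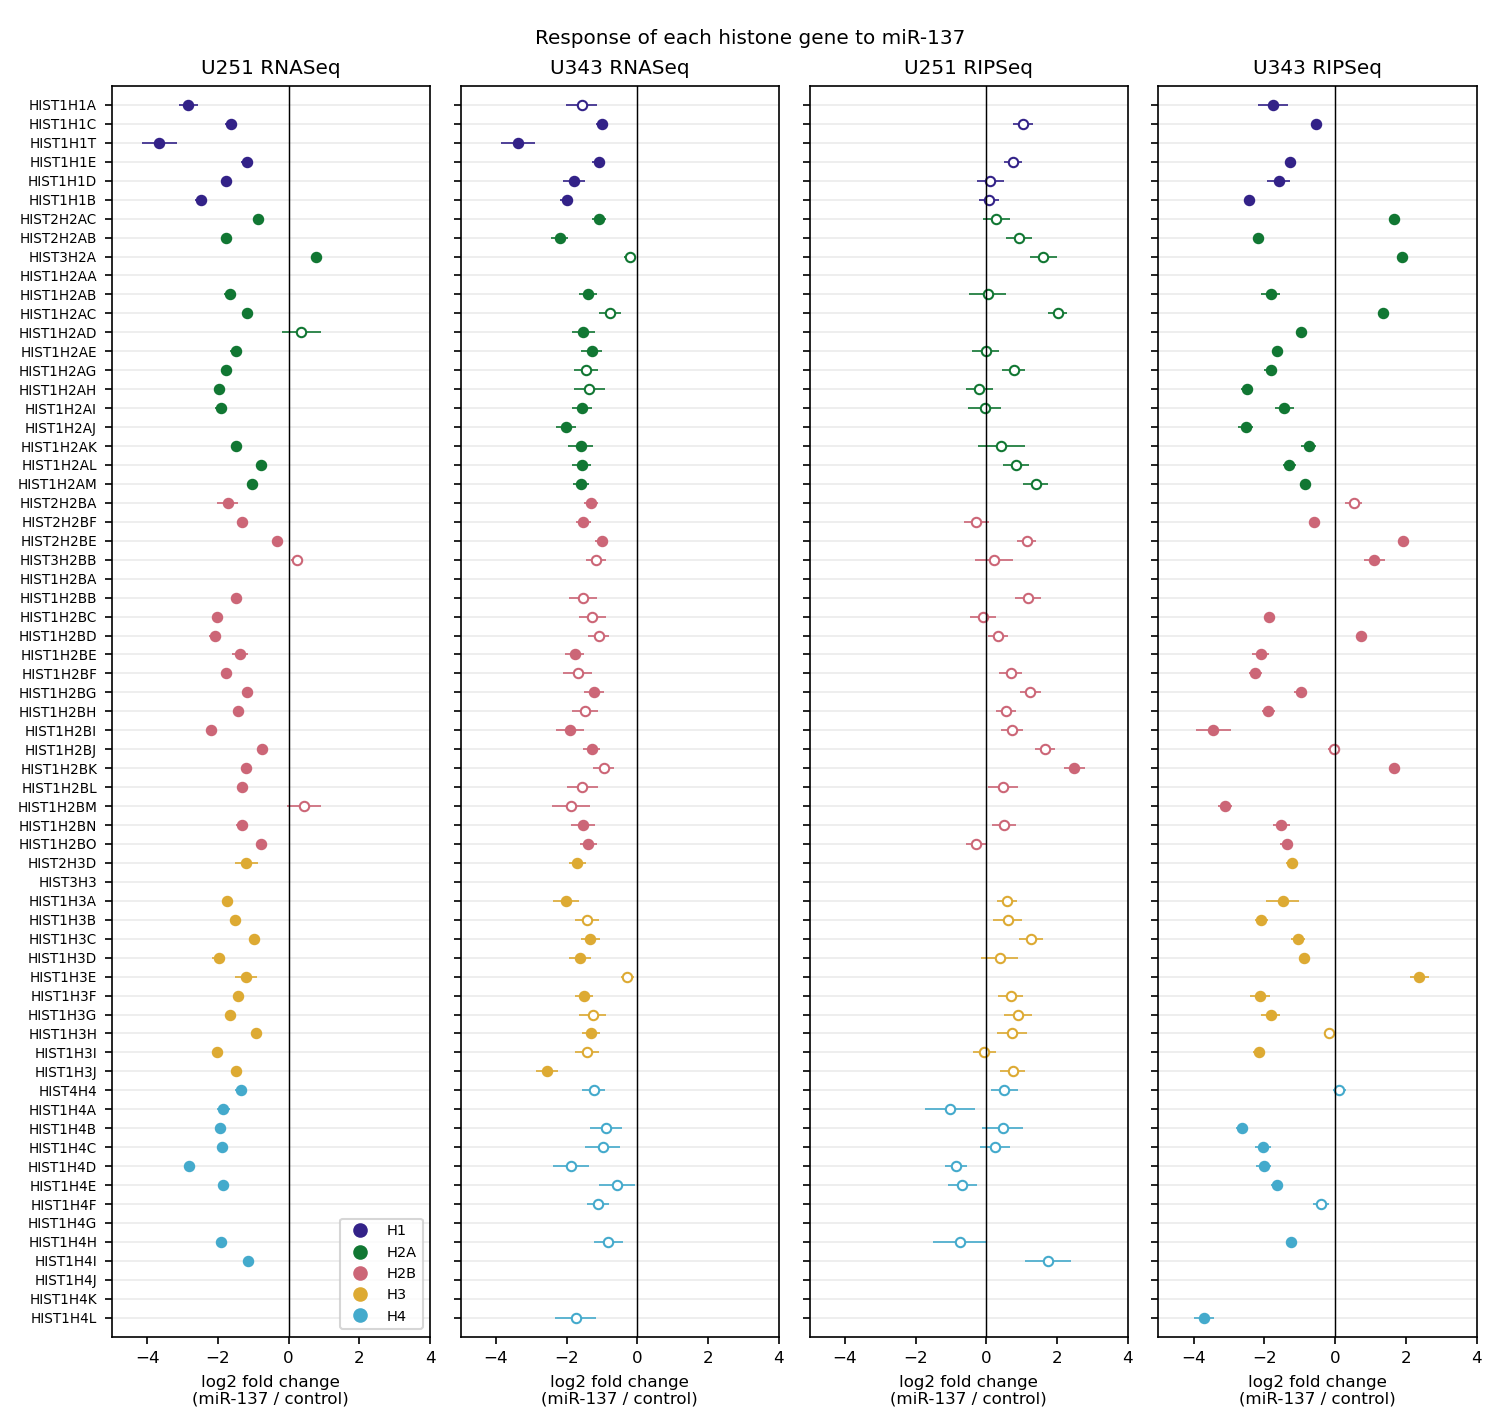
Log2 fold change of miR-137 against control (x axes) for each of the 65 histone genes (rows, grouped and coloured by the histone encoded) in the 4 experiments, with the edgeR SE as a bar; filled points passed an adjusted p of 0.05, open points did not, and rows without a point were not tested. Nearly all points lie left of 0 in RNASeq of both lines, 8 filled points lie right of 0 in U343 RIPSeq, and HIST1H2BK is the only filled point in U251 RIPSeq.

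RIPSeq held far fewer histone reads than total RNA in every group. In U251 control cells all 55 genes tested were lower in RIPSeq than in RNASeq (edgeR, adjusted p under 0.05), where 6.14% of all genes were lower and 7.87% higher. The median difference was -5.12 on the log2 scale. In U251 cells with miR-137 all 55 tested were lower (background 33.5% lower and 32.4% higher), with a median of -3.22. In U343 the figures were 57 of 57 in control cells (background 24.2% lower and 24.4% higher, median -3.95) and 53 of 55 with miR-137 (background 8.78% lower and 9.29% higher, median -3.91). None was higher in RIPSeq in any of the 4 comparisons by edgeR, by DESeq2 or at an unadjusted p under 0.05. For U343 with miR-137 the count of 53 became 0 without either of its RIPSeq libraries, as did the count over all genes. The summed share of histone reads was 37.8-fold lower in RIPSeq than in RNASeq in U251 control cells, 9.26-fold in U251 with miR-137, 12.5-fold in U343 control cells and 6.62-fold in U343 with miR-137.

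By histone type, H3 genes had the lowest medians in control cells of both lines, -5.77 in U251 and -5.24 in U343, and H1 genes the least negative, -4.61 and -2.85. HIST1H3F had 7218 and 6925 reads in the U251 control RNASeq libraries and 139 and 102 reads in the deeper RIPSeq libraries (log2 fold change -6.37, SE 0.47, adjusted p = 0.00387). In U343 control cells it had 3828 and 3980 reads and 68 and 75 reads (log2 fold change -5.70, SE 0.17, adjusted p = 5.88e-06). HIST1H3F was among the 5 lowest in each of the 4 comparisons. HIST1H3G was among them in 3, and HIST1H2AG in 3. In U251 control cells the lowest ratio was that of HIST1H4I (-6.70, SE 0.67), which had 29 and 10 reads in RIPSeq. At the other end, HIST3H2A, with at least 20 reads on average, was the least depleted gene in control cells of both lines (-2.72, SE 0.43 in U251 and -1.91 (SE 0.16) in U343). HIST1H4H was also among the 5 highest in both, and HIST1H1E and HIST1H1C were in U343. Over the 53 genes tested in control cells of both lines, the log2 ratios had a Pearson r of 0.55 and a Spearman rho of 0.55, as a description across genes whose counts may share reads.

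With miR-137 the median ratio of the members was nearer to 0 in U251 and about the same in U343, where a few genes stood near their level in total RNA. HIST1H2BK had the highest ratio in U251 (log2 fold change -1.04, SE 0.090, adjusted p = 2.08e-05), and was second in U343 (log2 fold change -0.72, SE 0.21, adjusted p = 0.0788). HIST3H2A had about equal levels in both assays of U343 with miR-137 (log2 fold change 0.21, SE 0.17, adjusted p = 0.416). These 2 were the genes not called in that comparison. HIST2H2BE (-0.86, SE 0.11), HIST1H3E (-1.34, SE 0.21) and HIST1H2BD (-1.55, SE 0.26) came next and were lower in RIPSeq at an adjusted p of 0.0165, 0.0222 and 0.0252. By contrast HIST1H3F (-6.29, SE 0.36) and HIST1H3B (-5.99, SE 0.37) stayed at the bottom.

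**Figure D4:**
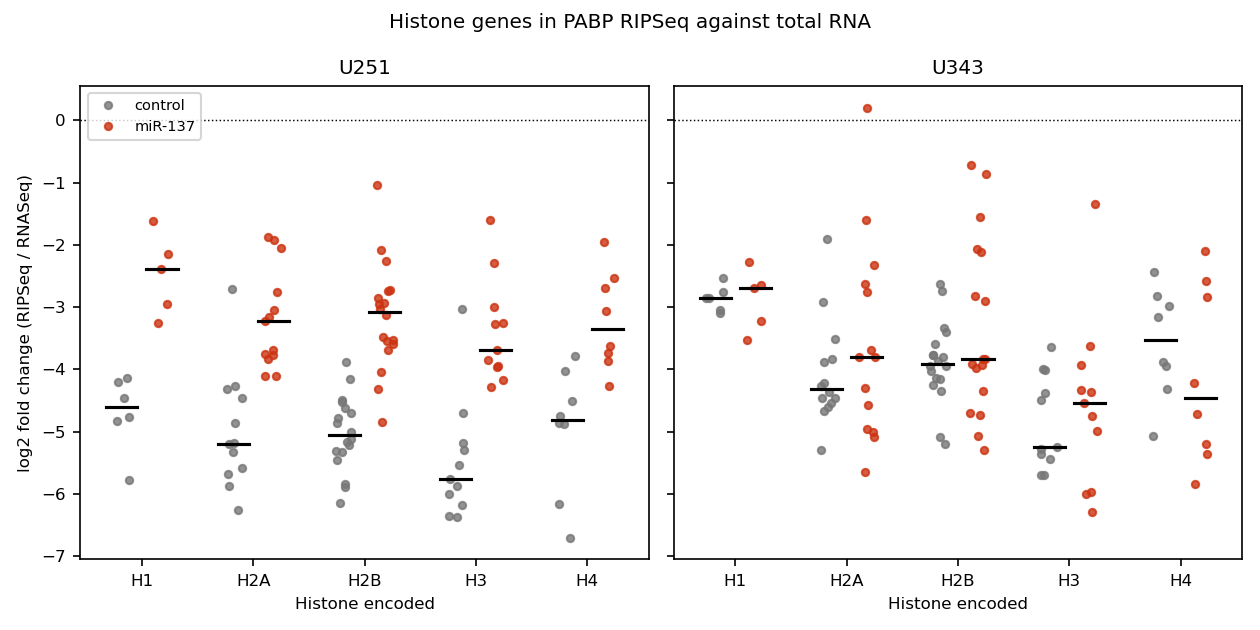
Log2 fold change of RIPSeq against RNASeq (y axis) for each histone gene tested, by the histone encoded, in U251 (left) and U343 (right), with control in grey and miR-137 in red; each point is a gene and the bars are medians. All points but 1 lie below 0, H3 has the lowest medians among controls, and in U343 a few H2A, H2B and H3 genes with miR-137 stand apart near 0.

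The RIPSeq level as a percent of the RNASeq level of the same gene, both in mean CPM, shows the same genes on a linear scale. HIST1H2BK went from 3.85% in control cells to 48.5% with miR-137 in U251 and from 9.99% in control cells to 61.1% with miR-137 in U343. HIST2H2BE, whose long transcript is annotated, went from 7.22% in control cells to 55.1% with miR-137 in U343 and from 5.63% in control cells to 15.1% with miR-137 in U251. HIST3H2A went from 27.0% in control cells to 116% with miR-137 in U343 and from 15.2% in control cells to 26.3% with miR-137 in U251. These were the genes that came nearest to their level in total RNA in U343, while the abundant H3 gene HIST1H3B went only from 2.48% in control cells to 1.57% with miR-137 and the abundant linker gene HIST1H1E from 17.4% in control cells to 15.5% with miR-137 there. The percentages are relative to all genes, since each library was scaled to its own total, and they were not tested.

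In U343 RIPSeq the family split. Of 53 genes tested, 40 fell and 8 rose with miR-137 (edgeR, adjusted p under 0.05), where 27.8% of all genes fell and 28.5% rose, and the median was -1.44 against 0.0049 over all genes. The 49 genes with at least 10 reads in each library gave 36 falls and 8 rises. All 5 H1 genes tested fell, 6 of 8 H4 genes fell and none of them rose, also in DESeq2 and at an unadjusted p under 0.05. H2A had 11 falls and 3 rises, H2B 10 falls and 4 rises, and H3 8 falls and 1 rise. As shares of all reads, the summed H1 reads went from 0.0540% ± 0.000735 to 0.0226% ± 0.00384, and the H3 and H4 sums were also lower. The summed H2A reads went from 0.0150% ± 0.000852 to 0.0225% ± 0.00167 and the H2B reads from 0.0107% ± 0.000288 to 0.0186% ± 0.00116 (SD, n = 2). Both increases were in a few genes. HIST2H2AC alone held 0.00449% and 0.00499% of all reads in the controls and 0.0147% and 0.0156% with miR-137, and the other H2A genes together 0.00986% and 0.0106% in the controls and 0.00660% and 0.00804% with miR-137. HIST1H2BK and HIST2H2BE together held 0.00415% and 0.00433% in the controls and 0.0141% and 0.01499% with miR-137, and the other H2B genes 0.00637% and 0.00659% against 0.00376% and 0.00447%. The remaining H2A and H2B sums were thus lower with miR-137, with groups that did not overlap. HIST2H2AC, HIST1H2BK and HIST2H2BE were set apart here after their values were seen.

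The 8 genes that rose in U343 RIPSeq were HIST1H3E, HIST2H2BE, HIST3H2A, HIST2H2AC, HIST1H2BK, HIST1H2AC, HIST3H2BB and HIST1H2BD. HIST2H2BE (chr1:148122634-148124856), an H2B gene with a long annotated transcript, was at 19.2 and 17.3 CPM in the control libraries and 69.7 and 66.9 CPM in the miR-137 libraries (log2 fold change 1.92, SE 0.090, adjusted p = 4.10e-06), while in U343 RNASeq it was at 212 and 292 CPM in the control libraries and 118 and 130.3 CPM in the miR-137 libraries (log2 fold change -1.01, SE 0.18, adjusted p = 0.0301). HIST2H2AC, its head-to-head partner, was at 47.2 and 52.4 CPM in the control libraries and 159 and 156 CPM in the miR-137 libraries in RIPSeq (log2 fold change 1.67, SE 0.090, adjusted p = 7.51e-06) and at 840.2 and 1193 CPM in the control libraries and 440.5 and 513 CPM in the miR-137 libraries in RNASeq (log2 fold change -1.08). Both partners thus fell in total RNA and rose with PABP, and their groups did not overlap in either assay. They were the 2 genes shared between the 31 falls in RNASeq and the 8 rises in RIPSeq. The difference of their responses in the 2 assays, tested as an interaction further on, was called for HIST2H2BE only. By contrast 24 genes fell in both assays, 77.4% of the RNASeq calls and 60.0% of the RIPSeq falls.

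HIST1H2BK (chr6:27214052-27222598) was at 24.5 and 28.3 CPM in the control libraries and 82.1 and 82.4 CPM in the miR-137 libraries in U343 RIPSeq (log2 fold change 1.66, SE 0.10, adjusted p = 1.03e-05). HIST1H4I, which lies inside its span, had 0 and 0 reads in the control libraries and 1 and 1 reads in the miR-137 libraries, far fewer than HIST1H2BK with 1051 and 1099 reads in the control libraries and 3075 and 3120 reads in the miR-137 libraries. HIST3H2A was at 3.94 and 4.35 CPM in the control libraries and 13.7 and 16.9 CPM in the miR-137 libraries (log2 fold change 1.90, SE 0.15, adjusted p = 4.02e-05). HIST1H3E, the only H3 gene that rose, had 23 and 14 reads in the control libraries and 95 and 81 reads in the miR-137 libraries (log2 fold change 2.38, SE 0.26, adjusted p = 1.99e-04). In all of these each miR-137 library was above each control library. HIST1H2AC, HIST3H2BB and HIST1H2BD rose by 1.34 (SE 0.10), 1.11 (SE 0.30) and 0.74 (SE 0.11) on the log2 scale. HIST3H2BB was sparse, with 32 and 16 reads in the control libraries and 45 and 49 reads in the miR-137 libraries.

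The largest falls in U343 RIPSeq were of core histone genes. HIST1H4L had 160 and 146 reads in the control libraries and 7 and 14 reads in the miR-137 libraries (log2 fold change -3.72, SE 0.28, adjusted p = 3.41e-05), and HIST1H2BI had 36 and 38 reads in the control libraries and 1 and 5 reads in the miR-137 libraries (log2 fold change -3.44, SE 0.49, adjusted p = 7.12e-04). HIST1H2BM had 203 and 178 reads in the control libraries and 19 and 21 reads in the miR-137 libraries (log2 fold change -3.11, SE 0.20, adjusted p = 1.63e-05). All 3 were down to 21 reads or fewer per library with miR-137. HIST1H4B was at 8.31 and 10.1 CPM in the control libraries and 1.44 and 1.48 CPM in the miR-137 libraries (log2 fold change -2.64, SE 0.18, adjusted p = 1.87e-05) and HIST1H2AJ at 3.36 and 3.16 CPM in the control libraries and 0.614 and 0.502 CPM in the miR-137 libraries (log2 fold change -2.53, SE 0.22, adjusted p = 5.84e-05). HIST1H2AG, whose promoter octamer is that of HIST1H2BJ, fell by 1.83 (SE 0.17) on the log2 scale, whereas HIST1H2BJ was at 3.06 and 2.78 CPM in the control libraries and 2.62 and 2.98 CPM in the miR-137 libraries and was not called (log2 fold change -0.04, adjusted p = 0.848). Promoter windows with an octamer were found for 4 of the 8 genes that rose and for 13 of the 32 genes that fell and had a window.

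The abundant linker histone genes fell in both assays of U343. In RIPSeq HIST1H1E was at 303 and 303 CPM in the control libraries and 109.5 and 139.5 CPM in the miR-137 libraries (log2 fold change -1.27, SE 0.13, adjusted p = 1.24e-04), and HIST1H1B was at 135 and 150.2 CPM in the control libraries and 24.4 and 27.4 CPM in the miR-137 libraries (log2 fold change -2.44, SE 0.10, adjusted p = 2.67e-06). Both fell in RIPSeq as well as in RNASeq, where HIST1H1E was at 1442 and 2041 CPM in the control libraries and 848 and 762 CPM in the miR-137 libraries (log2 fold change -1.10, SE 0.19, adjusted p = 0.0273). HIST1H1E made up 32.6% and 31.3% of the histone reads in the control RIPSeq libraries of this line, more than any other member. With miR-137 the leading member there was HIST2H2AC, with 23.5% and 21.4% of the histone reads. HIST1H1D fell by 1.60 (SE 0.33) on the log2 scale in RIPSeq.

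Of the 6 genes known to make polyadenylated transcripts, HIST1H1C, HIST1H2AC, HIST1H2BC, HIST1H2BD, HIST1H2BK and HIST2H2BE, 4 rose and 2 fell in U343 RIPSeq, with a median of 1.04. The 47 other genes tested gave 4 rises and 38 falls with a median of -1.52. Over all genes, 28.5% rose and 27.8% fell in this experiment. HIST1H2BC was at 9.55 and 9.90 CPM in the control libraries and 2.48 and 2.75 CPM in the miR-137 libraries and fell by 1.88 (SE 0.14) on the log2 scale, and on the same log2 scale HIST1H1C fell by 0.53 (SE 0.081). In U343 RNASeq all 6 had a lower estimate with miR-137 and 2 were called (median -1.01), where 11.7% of all genes fell. In U251 RNASeq all 6 fell (median -1.42), where 29.0% of all genes fell. In control RIPSeq against RNASeq all 6 were lower as well, with medians of -4.73 in U251 and -3.61 in U343. Of all genes, 6.14% were lower in that comparison in U251 and 24.2% in U343. The list was drawn up from general knowledge with earlier results of these data known, so its split is given as a description.

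In U251 RIPSeq few genes were called. Of 48 genes tested, 1 rose and 0 fell in edgeR (12 and 1 at an unadjusted p under 0.05), where 0.944% of all genes rose and 0.263% fell. DESeq2 called 6 rises and no fall, where 4.18% of all genes rose and 3.79% fell. The median was 0.53 on the log2 scale, with 37 estimates above 0 and 11 below. HIST1H2BK was the gene that rose, at 6.17 and 8.04 CPM in the control libraries and 41.1 and 37.7 CPM in the miR-137 libraries (log2 fold change 2.49, SE 0.29, adjusted p = 0.0464). HIST1H2AC was at 3.64 and 2.85 CPM in the control libraries and 13.8 and 11.95 CPM in the miR-137 libraries, with groups that did not overlap, but did not pass the test (log2 fold change 2.02, adjusted p = 0.0562). The control libraries differed from each other by 1.51-fold in their summed histone share and by 2.51-fold in H4. Without control replicate 1, 35 members rose and 1 fell, where 32.8% of all genes rose and 35.3% fell. Without control replicate 2, 23 rose and 7 fell, where 40.2% of all genes rose and 34.2% fell. Without either miR-137 library none was called, where at most 0.864% of all genes rose and 0.0576% fell.

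The difference between the response in RIPSeq and that in RNASeq was tested as an interaction within each line. In U251 it was positive in 54 of 56 genes tested, with a median of 1.93, and 5 genes passed the test, where 0.106% of all genes did in that direction and 0.0281% in the other. These were HIST1H2BK (3.65, SE 0.29 on the log2 scale, adjusted p = 0.0179), HIST1H2AC (3.13, SE 0.33), HIST1H2BI (2.85, SE 0.35), HIST1H1C (2.61, SE 0.33) and HIST1H1B (2.52, SE 0.29). For each of them the response was more negative in total RNA than with PABP. HIST1H1B, for example, stood at 37.8 and 41.4 CPM in the control libraries and 47.9 and 34.3 CPM in the miR-137 libraries in U251 RIPSeq, where its groups overlapped. In U343 the median was 0.02 over 57 genes, and HIST2H2BE alone was called (2.93, SE 0.22, adjusted p = 0.0456), where 0.00649% of all genes were. It was the only gene of all 15413 tested that passed. With a replicate block, 0 genes of the whole table were called in either line, though the replicate numbers were not shown to pair libraries. DESeq2 called 38 genes higher in U251 (2.17% of all genes), and 10 higher and 1 lower in U343 (0.792% and 1.8% of all genes). The U251 count was 51 without RIPSeq control replicate 1, where 11.6% of all genes were higher, and 48 without replicate 2, where 32.4% were. Without any of the other 6 U251 libraries no gene of the whole table was called. In U343, 8 were higher without miR-137 RNASeq replicate 1 (0.115% of all genes), and 12 were higher and 13 lower without replicate 2 (10.4% and 9.45% of all genes). Without control RNASeq replicate 1, 2 were higher, without control RNASeq replicate 2, 1 was, and without any 1 of the RIPSeq libraries no gene of the whole table was called.

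The rule by which the study's methods call a gene lowered was also run over all genes. Every control library is set against every miR-137 library with Fisher's exact test, and all 4 pairings must give an odds ratio above 2 with an adjusted p below 0.001. The mirrored rule was used here for rises. In U251 RNASeq 28 histone genes were lower by this rule and none higher, where 2.21% of all genes were lower and 6.14% higher. With library totals scaled by TMM factors, 42 were lower and none higher there. In that setting 879 of all 20314 genes were lower and 717 higher. In U343 RNASeq 19 were lower and none higher (background 2.88% and 1.51%). In U343 RIPSeq 27 were lower and 6 higher (background 3.4% and 4.83%), and the 6 were HIST1H2AC, HIST1H2BK, HIST1H3E, HIST2H2AC, HIST2H2BE and HIST3H2A. In U251 RIPSeq 0 were lower and 4 higher (background 1.49% and 3.47%), namely HIST1H2AC, HIST1H2BJ, HIST1H2BK and HIST3H2A. Fisher's test counts reads of 2 libraries at a time and does not use the spread between replicates.

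Other genes of the histone supply and of S phase were followed as lists. Of 18 S-phase genes, such as those that copy DNA or make its building blocks, 15 fell in U251 RNASeq (median -0.81). Over all genes 29.0% fell there. In U343 RNASeq 18 fell (median -1.44), where 11.7% of all genes fell. In U343 RIPSeq 18 fell (median -1.01), where 27.8% of all genes fell. None of the 18 rose in these experiments by edgeR, by DESeq2 or at an unadjusted p under 0.05. Over all genes edgeR called rises in 28.7%, 8.31% and 28.5%, in the same order. On the log2 scale MCM6, a subunit of the replicative helicase, fell by 1.59 (SE 0.15) in U251 RNASeq and fell by 1.80 (SE 0.15) in U343 RNASeq. In U251 TYMS (-0.15), FEN1 (-0.22) and CDT1 (0.09) were not called. These genes moved with the histone genes in RNASeq, and their part in the fall of histone reads was not tested. In U251 RIPSeq none of the 18 was called by edgeR, while 6 had a lower level at an unadjusted p under 0.05 and DESeq2 called 1. Over all genes there, edgeR called 0.263% lower and 0.944% higher, and DESeq2 called 3.79% lower and 4.18% higher.

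Of 20 genes that act on histone gene transcription or on histone mRNA, 10 fell and 4 rose in U251 RNASeq. In U343 RNASeq 9 fell and 1 rose. Over all genes, 29.0% fell and 28.7% rose in U251 and 11.7% fell and 8.31% rose in U343. All changes in this list are on the log2 scale. CCNE1, the cyclin that with CDK2 drives histone transcription at entry to S phase, fell by 2.64 (SE 0.17) in U251 and fell by 2.08 (SE 0.11) in U343 RNASeq. SLBP fell by 0.56 (SE 0.13) and fell by 0.60 (SE 0.12), and was not called in U343 RIPSeq (-0.20, adjusted p = 0.0697). LSM11, a subunit of the U7 particle that cuts histone pre-mRNA, fell by 0.47 (SE 0.16) and fell by 1.52 (SE 0.15), while its partner LSM10 rose by 0.70 (SE 0.21) and 0.65 (SE 0.15). NPAT, the coactivator of histone genes, was at -0.27 (SE 0.13) and -0.65 (SE 0.21) and was called in neither.

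Replacement histone genes had medians near 0 in the assay comparison. Of 11 tested in U251 control cells, 0 were lower and 1 was higher in RIPSeq than in RNASeq, with a median of 0.22, and of 9 in U343, 1 was lower and 1 higher (median 0.12). Over all genes, 6.14% were lower and 7.87% higher in U251 control cells, and 24.2% and 24.4% in U343 control cells. With miR-137, 5 fell and 2 rose of 10 tested in U251 RNASeq, where 29.0% of all genes fell and 28.7% rose. In U343 RNASeq 4 fell and 0 rose of 9, where 11.7% of all genes fell and 8.31% rose. In U343 RIPSeq 8 fell and 1 rose of 9, where 27.8% of all genes fell and 28.5% rose. The edgeR count of 0 rises was also 0 at an unadjusted p under 0.05 and by DESeq2. On the log2 scale, H2AFZ, an H2A variant found at promoters, fell by 1.05 (SE 0.16) in U251 RNASeq, fell by 1.34 (SE 0.12) in U343 RNASeq and fell by 1.43 (SE 0.087) in U343 RIPSeq. H2AFX, the variant phosphorylated at DNA breaks, fell by 0.58 (SE 0.13) and fell by 1.45 (SE 0.17) in RNASeq. H1F0, the linker histone of resting and differentiated cells, rose by 3.00 (SE 0.19) in U251 RNASeq, from 25.6 ± 8.97 to 206 ± 1.93 CPM (SD, n = 2), and its mean stayed under 1 CPM in every group of U343. Of 4 other RNAs known to lack poly(A) tails, RMRP, RPPH1, TERC and VTRNA1-1, all 4 were lower in RIPSeq of U251 control cells and the 3 tested were lower in U343 control cells. RPPH1, the RNA of ribonuclease P, was at -5.001 (SE 0.97) and -6.38 (SE 0.21). None of these RNAs fell with miR-137 in RNASeq, where RMRP (0.56, SE 0.18) and RPPH1 (0.63, SE 0.20) rose in U251 and no fall had an unadjusted p under 0.05.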

How the data were processed

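RNASeq and RIPSeq were measured in 16 libraries of the U251 and U343 lines, 2 per group. The authors aligned reads to hg18 with RMAP and deposited raw read counts per gene, on 1 super-transcript for each RefSeq gene with its isoforms collapsed; the treatment of reads that map to several places and the aligner's version are not given in the sources used here. The build is credited to the submitters' processing notes. A second line of 1 symbol in the U251 tables was dropped, and 0 columns of per-sample values were left unused. Groups came from the labels.

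Every comparison was fitted over all genes with edgeR 4.0.16 in R 4.3.3 (TMM normalization, filterByExpr, quasi-likelihood F test, Benjamini-Hochberg adjustment, threshold 0.05), each experiment alone. Interactions used the 8 libraries of a line or the 8 RNASeq libraries. DESeq2 1.42.0, upper-quartile scaling, no filter, a filter at a mean of 50 reads, a replicate block and leaving out each library were the alternatives. SE is the standard error of the log2 fold change. The rule of the study was run as given in its methods. The scripts were tested on simulated data. Figures were drawn with matplotlib 3.10.9 and tables made with pandas 2.3.3.

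Full statistics were given for up to 5 genes with the largest called fall and 5 with the largest called rise per miR-137 comparison (at least 20 reads on average in the higher group, the same direction in all 4 pairs), for the 5 lowest and 5 highest RIPSeq to RNASeq ratios, for the 8 highest levels per kb in each line and for HIST1H1T. Other genes were named as members with their levels or as members of the lists. The members, the lists and the tests were chosen with earlier results of these data known. Promoter and microRNA sequences came from RefSeq tables (GRCh38.p14). By symbol, 60 members matched 1 RefSeq gene and 5 matched 2, and 54 had a promoter entry. Depth per library is given with the results. A further 27 histone symbols of RefSeq had no row among the counted genes, so they could not be analysed under these symbols.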

Additional observations from a re-analysis of the deposited data

Results flagged for a closer look

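The response to miR-137 differed between RIPSeq and RNASeq in 5 histone genes of U251, by the interaction test in edgeR at an adjusted p under 0.05. In that test 0.106% of all genes had a higher response in RIPSeq and 0.0281% a lower one. The RIPSeq response minus the RNASeq response on the log2 scale was 2.52 for HIST1H1B, 2.61 for HIST1H1C, 3.13 for HIST1H2AC, 2.85 for HIST1H2BI and 3.65 for HIST1H2BK. In U343 it differed in 1 gene, HIST2H2BE, by 2.93, where 0.00649% of all genes were called. With a replicate block, 0 genes were called in either assay interaction, though the replicate numbers were not shown to pair libraries. Between the lines, the RNASeq response differed in 4 genes, where 12.7% of all genes had a lower and 12.5% a higher response in U343. The U343 response minus the U251 response was -1.08 for HIST1H3J, 1.76 for HIST1H4I, -0.98 for HIST3H2A and -1.42 for HIST3H2BB. The U343 response of HIST1H4I rested on a few reads. In each case the difference itself was tested, and no group had the 4 samples that a check for a sample far from the others needs. Cell line and library kit cannot be told apart in the comparison between lines.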

How the results depend on the processing

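Over the counts of histone genes called, 99 values under settings other than leaving out a library stayed within 1.5 times the main count and 17 did not. With DESeq2, 49 were lower in U343 RNASeq (15.5% of all genes), 6 higher in U251 RIPSeq (4.18%) and 38 higher in the U251 assay interaction (2.17%). In the U343 assay interaction 1 was lower (1.8% of all genes) and 10 were higher (0.792%). In the interaction with cell line 6 were lower and 4 higher, where 11.8% of all genes were lower and 15.2% higher. Without a filter on low counts, 0 rose in U251 RIPSeq, where 0.272% of all genes rose. With upper-quartile scaling, 2 were higher in the U251 assay interaction, where 0.0422% of all genes were. This scaling moved the median log2 fold change over all genes in U251 RNASeq from 0.02 to 0.16, with 51 histone genes and 23.0% of all genes lower. By the study's rule at an odds ratio of 1.5, 1 was higher in U251 RNASeq (2372 of all 20314 genes) and 46 were lower in U343 RNASeq (1321 of 20626). At the same ratio 9 were higher in U251 RIPSeq (1370 of 20314). With TMM-scaled totals 7 were higher in U251 RIPSeq (644 of 20314).

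With a replicate block, 5 rose in U251 RIPSeq, where 3.76% of all genes rose. In RIPSeq against RNASeq of U343 with miR-137 0 were lower, and in either assay interaction 0 were called. Over all genes the counts in these 3 fits were 0 as well. The replicate numbers were not shown to pair libraries, since there were 2 pairs per comparison and the correlation of their deviations ran from -0.20 to 0.28. Crossing the numbers in the U343 control comparison of the assays, chosen after seeing the data, left 57 lower and 0 higher. In that fit 27.2% of all genes were lower and 27.0% higher.

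Leaving out 1 library at a time, the counts ran from 0 to 54 lower in U343 RNASeq, from 0 to 7 lower and 0 to 35 higher in U251 RIPSeq, and from 0 to 54 lower in RIPSeq against RNASeq of U343 with miR-137. In the interactions they ran from 0 to 51 higher in U251 by assay, from 0 to 13 lower and 0 to 12 higher in U343 by assay, and from 0 to 14 lower and 0 to 17 higher by cell line. The cause of these changes was not tested. The falls in U251 RNASeq (49 to 51) and U343 RIPSeq (37 to 40) and the other RIPSeq to RNASeq comparisons stayed within 1.5 times the main count under every alternative run. With 2 libraries per group, a lone library left in a group is assumed to vary like the others.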
